A study of Rattus norvegicus with 12 samples.

Results

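The 10 genes described here encode acute-phase plasma proteins of the liver and were chosen by name from the 32883 genes of the rat annotation: the fibrinogen chains Fga, Fgb and Fgg, haptoglobin (Hp), orosomucoid 1 (Orm1), C-reactive protein (Crp), alpha-2-macroglobulin (A2m), the inter-alpha-inhibitor heavy chain Itih3, the alpha-1-microglobulin/bikunin precursor (Ambp) and lipocalin 2 (Lcn2). They were followed in hepatocyte-like cells by strain, platform and position in the liver lobule, to ask whether LEW hepatocytes carried more acute-phase mRNA than DA hepatocytes. The rule lists the genes by name and sets no threshold on a value.

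All rats were healthy males from the inbred strains DA (DA/OlaHsd) and LEW (LEW/SsNHsd) or from outbred Wistar stock, with no treatment in any group. The study gives a standard diet and specific-pathogen-free housing for the DA and LEW rats. Total liver homogenate (TLH) cells from a 2-step collagenase digestion were profiled in 2 DA and 2 LEW rats, nuclei of snap-frozen median lobe in 2 DA and 2 LEW rats, immune-enriched cells (parenchymal cells reduced by low-speed spins and washes) in 1 DA and 1 LEW rat, and Visium sections, which read RNA over small spots of tissue, in 2 Wistar sections. The labels give an age of 8–10 weeks for the series, the TLH libraries are named for rats of 10 weeks (each DA rat) and 13 weeks (each LEW rat), and the study's methods give an older, matched age, so age and strain cannot be told apart in the TLH cells. The names of the nuclei libraries carry the same animal numbers as the TLH libraries although the study's text calls them additional rats and its methods describe frozen tissue taken before perfusion of the same livers, so the TLH and nuclei values may not come from separate animals, and p-values cover only the spread between these libraries.

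Cells were grouped without these 10 genes, and a cluster was called hepatocyte-like from fixed markers such as Alb, Apoa1 and Ttr. The class held 16233 of 23036 TLH cells, 11226 of 12525 nuclei, and 178 of 1163 DA and 1249 of 2677 LEW immune-enriched cells. Median depth in it was 1822 to 2622 unique molecular identifiers (UMIs) per TLH cell, 1529.5 to 2119 per nucleus, and 36580.5 (DA) and 26549 (LEW) per immune-enriched cell. Levels below are CPM, the UMIs of a gene summed over the hepatocyte-like cells of a library and scaled to a common total.

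The acute-phase response is the change in plasma protein output of hepatocytes after infection or injury. Interleukin-6 acts through its receptor, JAK kinases and STAT3, and interleukin-1 acts through NF-kB and C/EBP factors. Genes such as those for fibrinogen, haptoglobin, orosomucoid and lipocalin 2 rise in the response, though not each of them with both cytokines, while albumin and transthyretin fall. In rats alpha-2-macroglobulin is the classical strongly induced acute-phase protein, whereas C-reactive protein is present in healthy rat plasma and is induced only modestly.

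The bases before the start sites of the fibrinogen genes, Orm1, Crp and Lcn2 are shown because these genes carry the comparisons that follow and the binding motifs of the inducing pathways can be read in them. Each line is the 250 bases upstream of a RefSeq start site in GRCr8, 5′ to 3′ on the gene's own strand, with motif matches in capitals.
Fga: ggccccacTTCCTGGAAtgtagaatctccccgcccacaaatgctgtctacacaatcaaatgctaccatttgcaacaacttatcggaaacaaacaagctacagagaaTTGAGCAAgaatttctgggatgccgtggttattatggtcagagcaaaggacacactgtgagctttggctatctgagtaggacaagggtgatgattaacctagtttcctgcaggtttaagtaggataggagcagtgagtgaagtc
Fgb: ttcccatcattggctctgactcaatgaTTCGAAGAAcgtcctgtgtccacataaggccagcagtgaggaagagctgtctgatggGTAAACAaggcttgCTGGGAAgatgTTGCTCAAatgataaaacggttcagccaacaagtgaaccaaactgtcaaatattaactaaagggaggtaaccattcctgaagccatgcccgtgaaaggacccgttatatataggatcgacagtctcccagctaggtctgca
Fgg: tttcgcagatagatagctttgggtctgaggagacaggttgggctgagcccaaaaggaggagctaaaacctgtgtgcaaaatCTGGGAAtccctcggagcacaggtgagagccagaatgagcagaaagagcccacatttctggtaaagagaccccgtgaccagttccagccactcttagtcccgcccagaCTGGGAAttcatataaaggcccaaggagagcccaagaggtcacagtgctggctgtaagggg
Orm1: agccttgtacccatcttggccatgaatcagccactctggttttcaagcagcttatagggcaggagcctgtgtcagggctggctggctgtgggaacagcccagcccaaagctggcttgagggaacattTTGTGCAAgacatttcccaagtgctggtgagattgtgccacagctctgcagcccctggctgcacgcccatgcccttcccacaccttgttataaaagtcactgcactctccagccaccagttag
Crp: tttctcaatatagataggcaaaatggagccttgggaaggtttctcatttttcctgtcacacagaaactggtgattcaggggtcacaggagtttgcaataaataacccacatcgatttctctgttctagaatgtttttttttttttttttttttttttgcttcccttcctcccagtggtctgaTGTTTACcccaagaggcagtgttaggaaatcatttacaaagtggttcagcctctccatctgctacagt
Lcn2: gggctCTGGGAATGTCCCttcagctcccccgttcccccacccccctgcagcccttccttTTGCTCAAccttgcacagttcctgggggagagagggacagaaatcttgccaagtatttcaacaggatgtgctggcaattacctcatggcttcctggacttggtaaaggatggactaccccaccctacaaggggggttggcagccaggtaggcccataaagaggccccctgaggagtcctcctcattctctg
The windows are chr2:170671919-170672168 on the plus strand for Fga (the first of 2 starts in the table), chr2:170700876-170701125 on the minus strand for Fgb and chr2:170652833-170653082 on the plus strand for Fgg, which lie side by side on chromosome 2. They are chr5:81788259-81788508 (plus) for Orm1, chr13:87693812-87694061 (plus) for Crp and chr3:36081781-36082030 (minus) for Lcn2. Motifs were searched on both strands, and positions count back from -1, the base before the start.

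CTGGGAA, the core of the classical interleukin-6 response element, was found at -152 of Fgb, at -169 and -61 of Fgg and at -245 of Lcn2, and 9.56% of 33469 promoter windows of this length hold it. The STAT palindrome TTCNNNGAA was found at -242 of Fga and -223 of Fgb (7.67% of windows). The C/EBP pattern TTGCNNAA was found in Fga, Fgb, Lcn2 and Orm1 (9.22%), and Crp held only the forkhead pattern TGTTTAC, at -68, which was also in Fgb (3.21%). Lcn2 alone held the NF-kB pattern that was searched (1.08%), at -242, sharing 4 bases with its CTGGGAA. Of the members, 8 were in the promoter table. Ambp and Itih3 held none of the 5 patterns, and Hp and A2m were not in the table. A match describes letters only.

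Of the members, 8 were counted at 97.9 CPM or more in every hepatocyte-like sum, and A2m and Lcn2 were at or near 0. The 8 were also counted in cell classes other than the hepatocyte-like one. Hp, which binds free haemoglobin, had 5542 to 7886 CPM in TLH hepatocyte-like cells, 2664 to 5265 CPM in TLH myeloid-like cells and 4142 to 6673 CPM in TLH endothelial-like cells. In the immune-enriched libraries, where hepatocytes had been reduced, the myeloid-like cells had 65.8 CPM (DA) and 320 CPM (LEW). Deposited barcodes below the median depth of their library, taken here as a stand-in for free RNA although what they hold was not measured, had 4123 to 7150 CPM of Hp in TLH and 7967 to 11054 CPM in nuclei. For Fgb the levels were 798 to 1129 CPM in TLH myeloid-like cells and 26.1 CPM (DA) and 133 CPM (LEW) in the immune-enriched ones. The strain differences in these low-depth barcodes are given below for some of the genes, since the part of free RNA in each value was not tested.

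**Figure D1:**
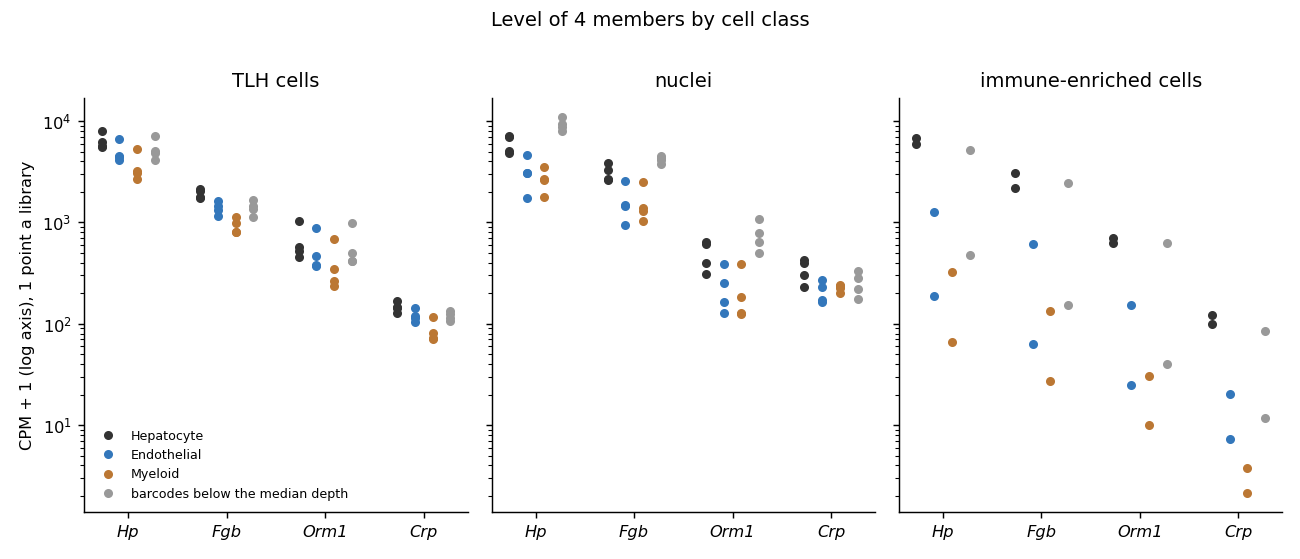
Level of Hp, Fgb, Orm1 and Crp (CPM + 1, log axis) by cell class, with 1 point per library, in TLH cells, nuclei and immune-enriched cells; grey points are barcodes below the median depth. In TLH the Hp points of myeloid-like cells reach 2664 to 5265 CPM, while the immune-enriched myeloid-like cells hold 65.8 and 320 CPM.

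The share of cells with a UMI was also well above 0 in myeloid-like cells. Crp was counted in 24.0% to 35.9% of TLH hepatocyte-like cells and in 15.4% to 29.0% of TLH myeloid-like cells, whose median depths over the 4 libraries were 2317 and 2659 UMIs. Orm1 was counted in 61.5% to 91.5% of TLH hepatocyte-like cells and 49.5% to 85.2% of the myeloid-like ones. After each TLH cell was thinned to 1500 UMIs, the Crp shares in hepatocyte-like cells were 17.6% to 21.5% and those of Orm1 45.5% to 76.5%, with DA rat 2 the highest for both.

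The fibrinogen chains, which assemble into the clotting protein cleaved by thrombin, were counted at higher mean levels in LEW than in DA hepatocyte-like cells on each platform, but none of these differences passed the test. Fgb (ENSRNOG00000007092) had 1749 and 1777 CPM in the DA TLH rats and 2058 and 2131 CPM in the LEW TLH rats. Both LEW values lay above both DA values, with a log2 difference (LEW minus DA) of 0.27 ± 0.12 (SE, n = 2 rats per strain; edgeR quasi-likelihood test, Benjamini-Hochberg adjusted p = 0.249). With each library clustered on its own the Fgb difference was 0.04. Fgg (ENSRNOG00000025074) had 1315 and 1352 CPM in DA and 1857 and 1711 CPM in LEW. Its groups did not overlap either, and at 0.44 ± 0.12, 1.36-fold, it had the smallest edgeR adjusted p of the chains, 0.0900, which was 0.0323 with no filter on low counts. Fga (ENSRNOG00000024848) had 504 and 292 CPM in DA and 426 and 587 CPM in LEW, so its groups overlapped (0.38 ± 0.30, edgeR adjusted p = 0.545). The Fga difference was 0.79 without DA rat 1, 0.60 without LEW rat 1, 0.12 without LEW rat 2 and 0.07 without DA rat 2.

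In the nuclei the LEW values of all 3 chains lay above the DA values. Fgb had 2652 and 2595 CPM in DA and 3308 and 3874 CPM in LEW (0.46 ± 0.40, edgeR adjusted p = 0.769). Fgg had 2010 and 2071 CPM in DA and 3189 and 2741 CPM in LEW (0.57 ± 0.41, edgeR adjusted p = 0.720; a difference of 0.33 without LEW rat 1 and 0.77 without LEW rat 2), and Fga had 423 and 491 CPM in DA and 512 and 724 CPM in LEW (0.44 ± 0.39, edgeR adjusted p = 0.772). The SE of the chains was 0.39 to 0.41 in nuclei and 0.12 to 0.30 in TLH. Across all genes tested, both LEW rats lay above both DA rats in 24.1% of genes in TLH and in 17.9% in nuclei. In barcodes below the median depth the TLH differences were 0.45 for Fga, 0.23 for Fgb and 0.35 for Fgg, close to those in the cells, whereas in the nuclei libraries they were -0.09, -0.03 and 0.04.

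The immune-enriched libraries held 1 rat per strain and allow no test. Their hepatocyte-like cells had 329 CPM of Fga in DA and 438 CPM in LEW, a log2 difference of 0.41. For Fgb the levels were 2199 CPM (95% exact Poisson interval 2158 to 2240) and 3063 CPM (3044 to 3082), and for Fgg 1444 CPM and 2117 CPM, with differences of 0.48 and 0.55. These intervals cover counting error only. The LEW value was the higher in each chain. These differences are ratios of plain CPM, unlike the edgeR values above, and have no share over all genes beside them.

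Hp, Orm1 and Crp did not share that direction. Hp (ENSRNOG00000014964) had 5542 and 7886 CPM in the DA TLH rats and 6240 and 5715 CPM in the LEW TLH rats, and 7099 and 4840 CPM in DA and 7024 and 5051 CPM in LEW nuclei. The strains overlapped on both platforms, with log2 differences of -0.15 ± 0.18 (edgeR adjusted p = 0.689) and 0.04 ± 0.45 (edgeR adjusted p = 0.986), and the single immune-enriched pair differed by -0.18.

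Orm1 (ENSRNOG00000007886), a carrier protein of drugs and lipids, had 565 and 1035 CPM in the DA TLH rats and 526 and 455 CPM in the LEW TLH rats. Both LEW rats lay below both DA rats, as in 28.9% of all genes in TLH, and the distance rested on DA rat 2. The log2 difference was -0.69 ± 0.33 (edgeR adjusted p = 0.315; 0.00224 with no filter on low counts). Without DA rat 2 it was -0.15, and without DA rat 1 it was -1.08, each with 1 DA rat left. In nuclei the values were 647 and 395 CPM in DA and 612 and 310 CPM in LEW, which overlapped (-0.14 ± 0.49, edgeR adjusted p = 0.951), and in the immune-enriched pair LEW was the higher, at 707 CPM against 626 CPM. In TLH barcodes below the median depth DA rat 2 again had the highest Orm1, 980 CPM against 411 to 495 CPM in the other libraries.

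Crp (ENSRNOG00000000053), a pentraxin that binds microbial and damaged membranes, was the lower in LEW in every set without passing the test. Its TLH levels were 145 and 165 CPM in DA and 128 and 143 CPM in LEW (-0.18 ± 0.15, edgeR adjusted p = 0.537), with a difference of -0.30 without DA rat 1 and of -0.04 without DA rat 2. The nuclei had 428 and 394 CPM in DA and 232 and 299 CPM in LEW (-0.63 ± 0.39, edgeR adjusted p = 0.657), and the immune-enriched pair had 120 and 97.9 CPM (-0.30). LEW lay below DA with no overlap in both replicated sets, as 28.9% of all genes did in TLH and 19.2% in nuclei. After thinning to 1000 UMIs, Crp was counted in 32.6% and 31.1% of DA and 19.1% and 24.5% of LEW hepatocyte-like nuclei. In low-depth barcodes the differences were -0.01 in TLH and -0.78 in nuclei.

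**Figure D2:**
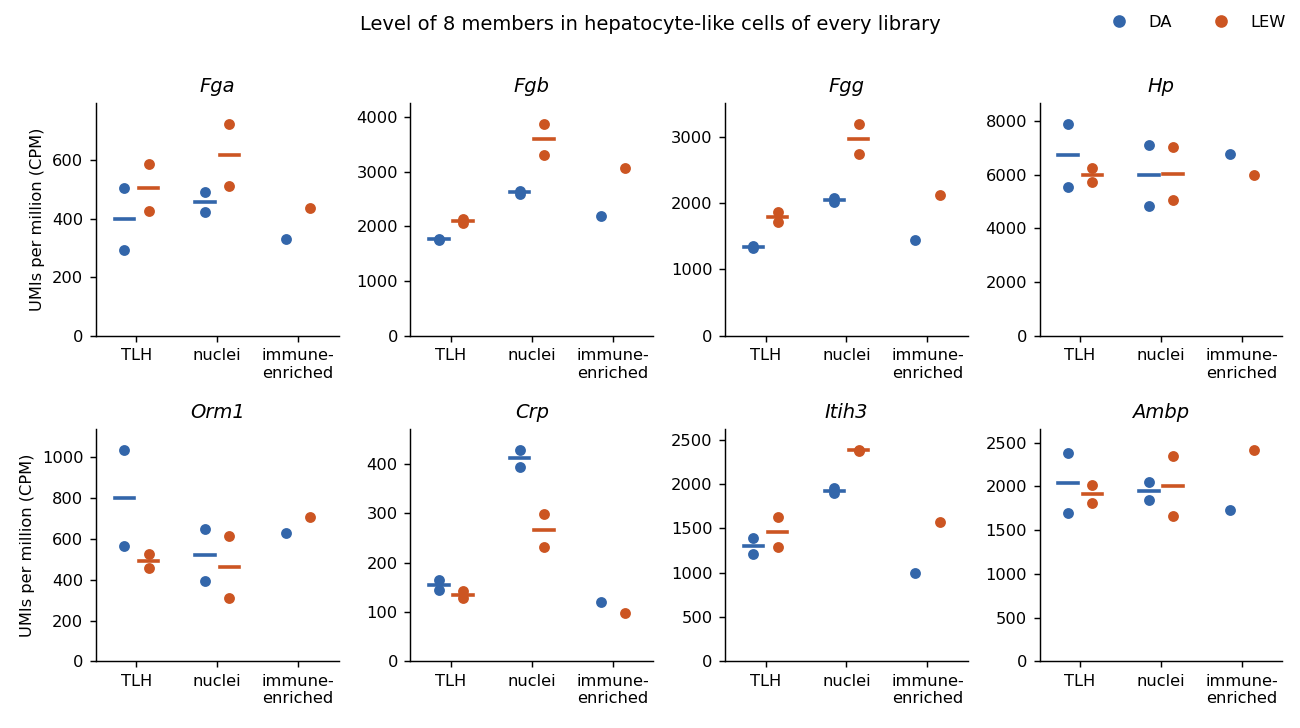
CPM of the 8 measured members in hepatocyte-like cells (vertical axis from 0), with 1 point per rat and a bar at the mean of 2 rats, for DA and LEW on each platform. The Fgg points of LEW (1857 and 1711 CPM in TLH, 3189 and 2741 CPM in nuclei) lie above those of DA, and those of Crp lie below.

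Itih3 (ENSRNOG00000017689) encodes a heavy chain that is linked to bikunin and to hyaluronan, and Ambp (ENSRNOG00000006889) encodes bikunin itself together with alpha-1-microglobulin. Itih3 had 1207 and 1387 CPM in DA and 1628 and 1292 CPM in LEW TLH cells, which overlapped (0.19 ± 0.15, edgeR adjusted p = 0.523). The Itih3 difference was 0.03 without LEW rat 1, 0.07 without DA rat 1, 0.33 without DA rat 2 and 0.34 without LEW rat 2. In nuclei it had 1954 and 1894 CPM in DA and 2376 and 2386 CPM in LEW (0.32 ± 0.40, edgeR adjusted p = 0.849). Both LEW rats lay above both DA rats there, as in 17.9% of all genes. Ambp overlapped between the strains on both platforms. Its levels were 1692 and 2380 CPM in DA and 2016 and 1817 CPM in LEW TLH cells (-0.07 ± 0.18, edgeR adjusted p = 0.863), and 2052 and 1850 CPM in DA and 2352 and 1662 CPM in LEW nuclei (0.07 ± 0.43, edgeR adjusted p = 0.972). The immune-enriched LEW rat had more of both, at 1575 against 994 CPM for Itih3 (0.66) and 2419 against 1727 CPM for Ambp (0.49).

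Lcn2 (ENSRNOG00000013973), which withholds iron from bacteria by binding their siderophores and is a major product of neutrophils, was counted in LEW and not in DA TLH cells, at a level close to the detection limit. In TLH hepatocyte-like cells it had 0 UMIs in both DA rats and 22 and 10 UMIs (2.02 and 1.42 CPM) in the LEW rats. Set against a floor of 3 UMIs per DA library, mean Lcn2 was at least 5.95-fold higher in LEW. As it passed the filter on low counts only through the LEW rats, it had to differ to be tested, and these values are a description. Without LEW rat 2 edgeR no longer called it (adjusted p = 0.0939), without LEW rat 1 it fell under the filter, and DESeq2 gave it no adjusted p. The UMIs sat in 21 of 7192 LEW cells, 11 in LEW rat 1 and 10 in LEW rat 2, with at most 6 in a single cell, against 0 of 9041 DA cells. Shares of cells were 0.258% and 0.341% in LEW, and a count of 0 allows up to 0.0675% and 0.0653% of cells with a UMI in the DA rats, which sets no limit on the share of cells expressing the gene.

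TLH barcodes below the median depth held 0 UMIs in both DA rats and 43 and 38 UMIs in the LEW rats, so LEW and DA also differed outside the hepatocyte-like class. The unnamed TLH clusters held 6 and 4 UMIs of Lcn2 in the LEW rats (10.7 and 7.45 CPM) and 0 in the DA rats. Summed neutrophil markers in TLH hepatocyte-like cells were 3.23 and 1.09 CPM in DA and 1.47 and 2.28 CPM in LEW. Cxcr2 and Mmp8 were at 0 in all 4 rats and Csf3r and Retnlg also at 0 in both LEW rats, so the LEW sums came from the rest of the 6 markers. A neutrophil source of Lcn2 was not tested. In nuclei Lcn2 had 2 and 0 UMIs in DA and 8 and 0 UMIs in LEW hepatocyte-like nuclei and was not tested, with 13 UMIs in the mesenchymal-like nuclei of LEW rat 1. The immune-enriched hepatocyte-like cells held 0 UMIs in DA and 9 UMIs in 2 cells in LEW.

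A2m (ENSRNOG00000045772), a broad protease inhibitor, was at 0 UMIs in the hepatocyte-like cells of all 10 libraries, over 102312702 UMIs, and at 0 in every other class and on both Visium sections. A count of 3 UMIs would be 0.0930 to 0.686 CPM, depending on the library. Whether reads of A2m could be assigned to this row of the annotation is not known, so the zeros set no limit on its level.

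Of the 9 members tested in TLH, edgeR called 1, Lcn2, which entered the test only through the LEW rats, and 0 of the other 8, against 4.26% of all 9891 genes. At an unadjusted p under 0.05 there were 2 (Fgg and Lcn2), against 21.0% of all genes. DESeq2 called 0 in TLH and had 3 at an unadjusted p under 0.05, with Orm1 added. It called 3.72% of the genes to which it gave an adjusted p, and 7.43% of the genes with an unadjusted p lay under 0.05. In nuclei edgeR called 0 of 8 (0 at an unadjusted p under 0.05, and 0 by DESeq2 at either level), against 1.27% of 10630 genes called and 10.4% at an unadjusted p under 0.05 (1.67% and 5.08% by DESeq2, of the same kinds of genes as in TLH). In simulated counts the nuclei test called 22% of genes given a log2 change of 1, so a count of 0 says little about smaller changes.

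**Figure D3:**
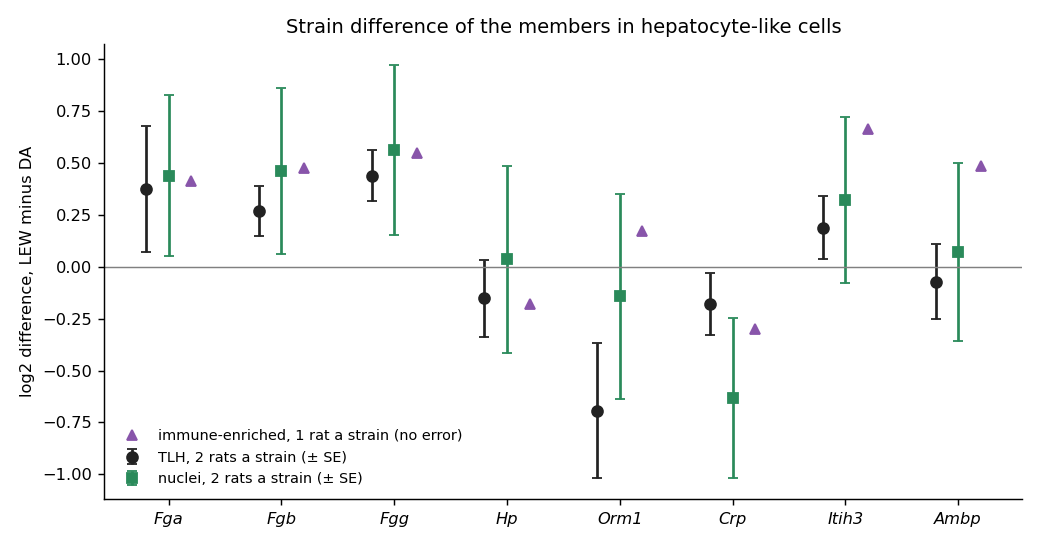
Log2 difference in level, LEW minus DA, for the 8 measured members in TLH cells and nuclei (± SE, 2 rats per strain) and in the immune-enriched pair (no error bar, 1 rat per strain). The fibrinogen chains lie above 0 on each platform (0.27 to 0.57) and Crp lies below 0 (-0.18 to -0.63).

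The difference between the strain effects in nuclei and in TLH cells was tested over all 8 sums. None of the 9 members was called by edgeR (0 at an unadjusted p under 0.05), against 0.00864% of 11572 genes called (4.53% at an unadjusted p under 0.05). In simulated counts this test called 7% of genes given a log2 difference of 1, so the count of 0 says little. The strain effect in nuclei minus that in TLH was 0.02 ± 0.46 for Fga, 0.15 ± 0.43 for Fgb and 0.09 ± 0.45 for Fgg. For Orm1 it was 0.52 ± 0.66 and for Crp -0.50 ± 0.38.

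Of 33 other positive acute-phase genes listed, 25 were tested on each platform. In TLH 2 were higher in LEW and 0 lower, with a median log2 difference of 0.00 over the list and -0.01 over all genes tested, against 2.00% of all genes called higher and 2.25% called lower. In nuclei 1 was higher and 1 lower, with medians of 0.25 and 0.02, against 0.527% and 0.743%. At an unadjusted p under 0.05 there were 8 of 25 in TLH and 7 of 25 in nuclei, against 21.0% and 10.4% of all genes, and DESeq2 called 2 and 3, against 3.72% and 1.67% of the genes to which it gave an adjusted p. Positive differences numbered 13 of 25 in TLH and 16 of 25 in nuclei, against 49.2% and 52.0% of all genes. Fgl1, a fibrinogen-like protein secreted by hepatocytes, had 153 and 171 CPM in DA and 320 and 318 CPM in LEW TLH cells. It rose by 1.00 ± 0.14 on the log2 scale (edgeR adjusted p = 0.00598; 0.106 without LEW rat 1 and 0.0643 without LEW rat 2), and in nuclei it was 205 and 264 CPM in DA and 439 and 782 CPM in LEW (1.38 ± 0.41, edgeR adjusted p = 0.185). The immune-enriched pair had 157 and 329 CPM. Nnmt, which methylates nicotinamide, was the other gene called higher in TLH (0.78 ± 0.18, edgeR adjusted p = 0.0454), with 0.19 in nuclei, and its call held without DA rat 2 (0.0324) but not without DA rat 1 (0.106), LEW rat 1 (0.0888) or LEW rat 2 (0.215).

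In nuclei Cfb, a protease of the alternative complement pathway, was called higher in LEW, with 17.2 and 16.0 CPM in DA and 37.3 and 51.4 CPM in LEW (1.42 ± 0.29, edgeR adjusted p = 0.0435; 0.159 without DA rat 1 and 0.273 without DA rat 2). The call was lost in 4 of 12 other settings, among them RLE factors (0.0514), and in low-depth barcodes the difference was 0.71. In TLH Cfb had a difference of -0.56 (edgeR adjusted p = 0.714), which was -1.16 without DA rat 1 and 0.61 without DA rat 2. Il1rn, the natural antagonist of the interleukin-1 receptor, was called lower in LEW nuclei, at 36.5 and 44.5 CPM against 427 and 125 CPM in DA (-2.80 ± 0.57, edgeR adjusted p = 0.0435). The call held without DA rat 2 and not without DA rat 1 (edgeR adjusted p = 0.158), LEW rat 1 (0.571) or LEW rat 2 (0.352), nor in 4 of 12 other settings, with -1.65 in low-depth barcodes. Its TLH values were 22.7 and 61.8 CPM in DA and 10.2 and 14.4 CPM in LEW (-1.80 ± 0.66, edgeR adjusted p = 0.268). The difference was -2.35 without DA rat 1 and -0.85 without DA rat 2, and the immune-enriched pair differed by -1.56. The DA rats differed widely from each other in both sets, and no LEW rat reached a DA value, as in 28.9% of all genes in TLH and 19.2% in nuclei.

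The genes that carry the interleukin-6 and interleukin-1 signal had 3 members called lower and 1 called higher in LEW TLH hepatocyte-like cells, of 19 tested, against 2.25% and 2.00% of all genes, with a list median of -0.33 and a median of -0.01 over all genes. At an unadjusted p under 0.05 there were 7 of the 19, against 21.0% of all genes. DESeq2 called 3, against 3.72% of the genes to which it gave an adjusted p. Il6r, the ligand-binding chain of the interleukin-6 receptor, had 77.4 and 62.5 CPM in DA and 26.7 and 28.7 CPM in LEW, and fell by 1.31 ± 0.15 on the log2 scale (edgeR adjusted p = 0.00260; 0.0874 without LEW rat 1). In nuclei it had 336 and 210 CPM in DA and 105 and 103 CPM in LEW (-1.39 ± 0.41, edgeR adjusted p = 0.173; DESeq2 adjusted p = 0.0334), and in the immune-enriched pair 81.2 and 38.4 CPM (-1.08). LEW was the lower on each platform, and edgeR made the call in TLH. In low-depth TLH barcodes the Il6r difference was -1.31 as well.

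Cebpb, the C/EBP factor that interleukin-6 induces in liver, had 583 and 789 CPM in DA and 353 and 333 CPM in LEW TLH cells (-0.98 ± 0.17, edgeR adjusted p = 0.0187; 0.183 without LEW rat 1 and 0.175 without LEW rat 2; lost in 3 of 14 other settings, at 0.0743 to 0.0773), with -0.59 in nuclei (edgeR adjusted p = 0.701) and -1.09 in the immune-enriched pair. Bcl3, an atypical inhibitor of NF-kB that is itself an acute-phase target, had 23.3 and 19.9 CPM in DA and 6.25 and 6.55 CPM in LEW (-1.73 ± 0.18, edgeR adjusted p = 0.00191; 0.0661 without LEW rat 1), with -0.57 in nuclei (edgeR adjusted p = 0.642) and -1.77 in the immune-enriched pair. Jak1, a kinase of the receptor complex, was the gene called higher in TLH (0.72 ± 0.16, edgeR adjusted p = 0.0392), with 0.01 in nuclei, and lost its call without any 1 of the 4 rats (edgeR adjusted p = 0.0829 to 0.183). None of the 21 signalling genes tested in nuclei was called by edgeR (3 at an unadjusted p under 0.05, 1 by DESeq2), against 1.27% of all genes called and 10.4% at an unadjusted p under 0.05, and the list median there was -0.20.

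Immediate-early genes are known to rise with tissue handling as well as with cytokines. Their summed level in hepatocyte-like cells was 1523 and 1709 CPM in DA and 748 and 1124 CPM in LEW TLH libraries, and 5104 and 6103 CPM in DA and 2853 and 8131 CPM in LEW nuclei. Of 10, edgeR called 2 lower in LEW TLH cells, Zfp36 (-1.11, edgeR adjusted p = 0.0300) and Dusp1 (-0.82, edgeR adjusted p = 0.0341), and 1 lower in LEW nuclei, Fosb (-4.51, edgeR adjusted p = 0.0347), against 2.25% and 0.743% of all genes. In TLH 9 of the 10 had a negative difference, 6 had an unadjusted p under 0.05 and DESeq2 called 5, and in nuclei these counts were 5, 2 and 2. Of all genes, 50.8% in TLH and 48.0% in nuclei had a negative difference, and 21.0% and 10.4% an unadjusted p under 0.05. DESeq2 called 3.72% and 1.67% of the genes to which it gave an adjusted p. Zfp36 and Fosb lost their calls without LEW rat 1 (edgeR adjusted p = 0.184 and 0.0802), and Dusp1 without DA rat 2 (0.0831), LEW rat 1 (0.239) or LEW rat 2 (0.162). In the immune-enriched pair, with 1 rat per strain, the summed level was 1213 CPM in DA and 1254 CPM in LEW. The differences there were -0.31 for Zfp36 and -0.02 for Dusp1. Whether tissue handling had a part in any of the strain differences was not tested.

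Of the remaining lists, Itih2, a partner of Itih3 in the inter-alpha-inhibitor family, was called higher in LEW TLH cells at 30.7 and 28.6 CPM against 12.1 and 12.4 CPM (1.30 ± 0.16, edgeR adjusted p = 0.00319; 0.0732 without LEW rat 1), with -0.01 in nuclei, and was the only call among 3 family genes. The negative acute-phase genes, among them Alb, Ttr and Tf, had 0 of 10 called by edgeR on either platform (0 at an unadjusted p under 0.05, 0 by DESeq2), where 4.26% of all genes were called in TLH and 1.27% in nuclei, so a count of 0 says little for so short a list, with medians of 0.08 in TLH and 0.17 in nuclei. For the coagulation genes edgeR and DESeq2 called 0 of 15 on either platform (5 in TLH and 0 in nuclei at an unadjusted p under 0.05), and for the liver factors of acute-phase promoters 0 of 7 (1 on each platform), beside 21.0% of all genes at that level in TLH and 10.4% in nuclei. Of 10 cytokine ligands, 2 in TLH and 1 in nuclei had enough counts to test, with 0 called by edgeR or DESeq2 and 0 at an unadjusted p under 0.05.

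**Figure D4:**
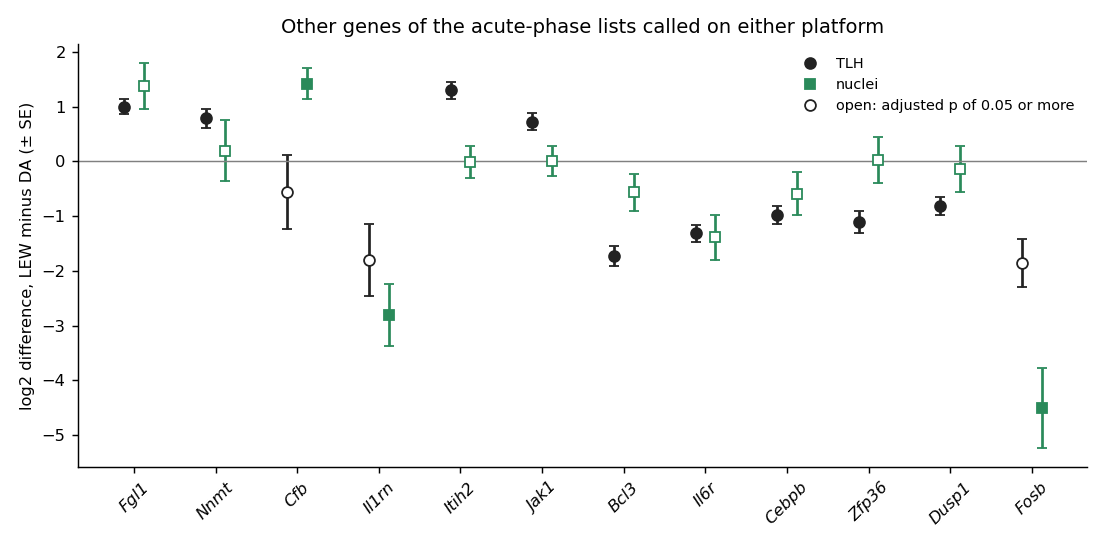
Log2 difference in level, LEW minus DA (± SE, 2 rats per strain), for the genes of the other lists that edgeR called on either platform, in TLH cells and nuclei; open symbols have an adjusted p of 0.05 or more. Il6r, Bcl3 and Cebpb lie at -1.31, -1.73 and -0.98 in TLH, and Fgl1 at 1.00.

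Position in the lobule was read from clusters of hepatocyte-like cells ranked by a score of periportal minus pericentral markers that held none of the 10 genes. In nuclei Sds and Hal, enzymes of periportal amino acid breakdown, were 4.19 and 2.49 higher on the log2 scale in periportal-like clusters, and Cyp1a2 and Gulo of the pericentral zone had -2.19 and -1.72. Itih3 was 0.18 higher on average (0.13 with longer marker lists) and higher in 4 of 4 rats with either list. Hp averaged -0.40 and Ambp -0.50, both lower in 4 of 4 rats, though in LEW rat 1 they were -0.01 and -0.000245. Levels in sums by rat and cluster also fell with the median UMIs of the cluster (r = -0.78 for Hp, -0.77 for Ambp, -0.71 for Fgb and -0.76 for Fgg). The part of depth in the zone differences was not tested. With longer marker lists Hp averaged -0.59, Ambp -0.68, Fgb -0.39 and Fgg -0.40, each lower in 4 of 4 rats, and Fga averaged -0.26, lower in 3 of 4. With the shorter lists, 35.2% of 7161 genes were higher and 15.4% lower in the periportal-like clusters of all 4 rats, and with the longer lists 42.2% and 15.4% of 7218 genes. The median difference over these genes was 0.15 with the shorter and 0.27 with the longer lists. The Itih3 difference was thus near that of a typical gene with the shorter lists and below it with the longer.

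With the shorter lists the remaining members changed sign between rats. The periportal minus pericentral difference of Orm1 was 0.05 and -0.14 in the DA rats and 0.37 and 0.18 in the LEW rats, and that of Fgb was -0.34 and -0.30 in DA and 0.07 and -0.14 in LEW. Fga averaged 0.12 ± 0.11 and Fgg -0.01 ± 0.06 (SD, n = 4), and Crp had 0.12 and 0.23 in DA and -0.09 and -0.12 in LEW. With single nuclei ranked in place of clusters, Orm1 averaged 0.57 ± 0.47 (SD, n = 4), with DA rat 1 at -0.07. Hp then averaged 0.03, Ambp -0.02, Fga 0.11, Fgb 0.05 and Fgg 0.15, each higher in periportal-like nuclei in 3 of 4 rats. The lower values of these genes in periportal-like clusters thus depended on how nuclei were grouped. The periportal-like nuclei of DA rat 1 had a median of 1896.5 UMIs against 1389 in its pericentral-like nuclei.

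Whether the strain difference itself varied with zone was tested in nuclei with each rat as a block. Of 8 members 0 were called by edgeR (2 at an unadjusted p under 0.05), against 1.19% of 9394 genes called and 9.63% at an unadjusted p under 0.05. The LEW minus DA difference was greater in periportal-like than in pericentral-like nuclei by 0.36 ± 0.17 for Orm1 (edgeR adjusted p = 0.437) and by 0.32 ± 0.16 for Fgb (edgeR adjusted p = 0.515). For Crp it was -0.25 ± 0.17 (edgeR adjusted p = 0.700). For Ambp it was 0.16 ± 0.16 (edgeR adjusted p = 0.826) and for Hp 0.16 ± 0.17 (edgeR adjusted p = 0.829). Without LEW rat 2 the Ambp value was 0.62 and that of Hp 0.51, and both changed sign among the fits that left out 1 rat.

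On the Wistar sections Orm1 had the largest periportal difference of the 8 measured members. The 812 spots with the highest zone score of 2437 in the first section had 1191 CPM of Orm1 and the 812 with the lowest had 715 CPM, and in the second section the levels were 1273 and 714 CPM (801 spots each of 2404). The log2 differences, 0.74 and 0.83, lay outside the range of -0.31 to 0.30 and of -0.33 to 0.33 that held the central 90% of genes, and Orm1 took no part in the score. The fibrinogen chains had 0.14 to 0.18 in the first and 0.15 to 0.20 in the second section, Hp 0.06 and 0.07, Itih3 0.08 and 0.10, Ambp -0.01 and -0.00, and Crp -0.21 and -0.27. Sds, by comparison, had 1.11 and 1.34, and Cyp1a2 -0.60 and -0.77. Lcn2 had 29 UMIs in the periportal-like and 11 in the pericentral-like spots of the first section, and 32 and 12 in the second. The levels were 2.48 and 0.97 CPM, and 2.64 and 1.11 CPM, and the differences of 0.82 and 0.79 on the log2(CPM + 1) scale understate the ratio at such low levels.

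In TLH clusters all 8 measured members were higher in the periportal-like cells in 4 of 4 rats, from 0.28 for Crp to 1.02 for Itih3, where 17.6% of 5261 genes were. Ranked by single cells the differences were smaller, with 0.54 for Itih3 and 0.46 for Fgb, and Crp averaged -0.03 and was higher in 1 of 4 rats. With longer lists Fgg was higher in 3 of 4 rats and the other 7 in 4 of 4, where 16.5% of 5411 genes were higher and 34.7% lower in all 4. The periportal-like group was 2 clusters led by mitochondrial transcripts such as Mt-co1 and Mt-nd4. Its median mitochondrial share was 14.7% to 19.6% of UMIs per cell, against 3.91% to 4.88% in the pericentral-like group. Ranked by single cells the shares were 4.77% to 14.7% and 3.78% to 4.16%. The part of this in the member differences was not tested. With the longer lists the shares were 3.28% to 4.04% and 3.91% to 4.88%. The median difference of the members, taken in each rat and averaged, was then 0.37 in place of 0.73. The zone reading of these clusters was weak. Sds and Cyp1a2 differed by 1.47 and -0.64 there, and Ass1 and Arg1, periportal enzymes of the urea cycle, had -0.22 and -0.18.

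**Figure D5:**
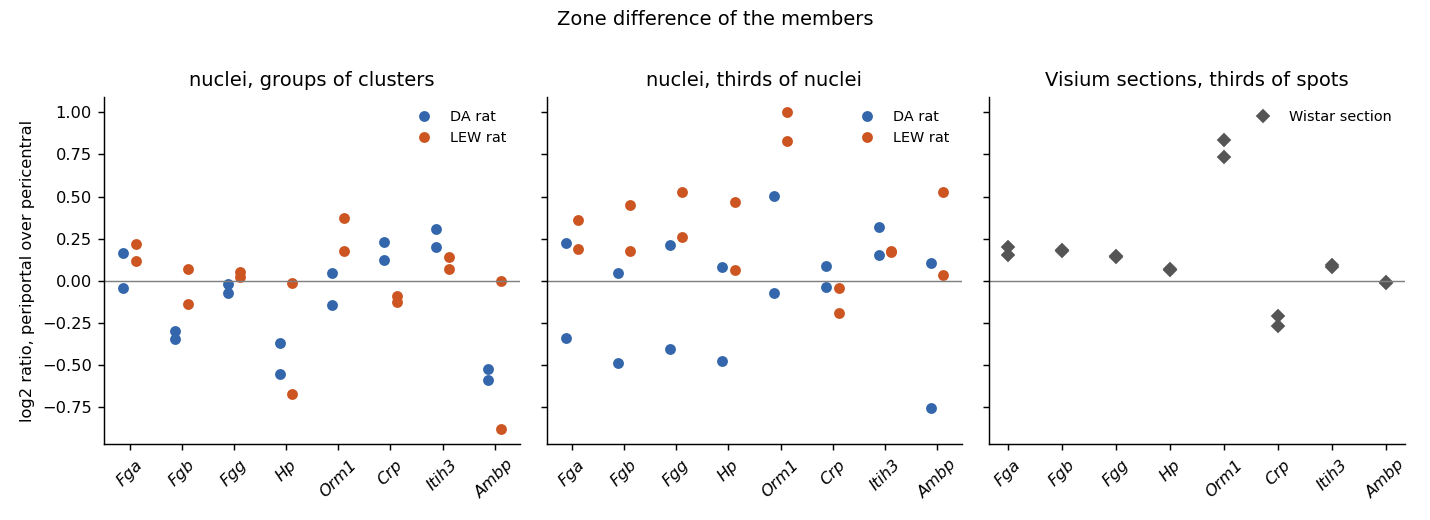
Log2 ratio of levels, periportal-like over pericentral-like, for the 8 measured members, with 1 point per rat in nuclei grouped by cluster (left) or by the score of each nucleus (middle) and 1 point per Visium section (right). Orm1 lies between -0.14 and 0.37 by cluster, between -0.07 and 1.00 by nucleus, and at 0.74 and 0.83 on the sections.

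Over 85 sums of hepatocyte-like nuclei by rat and cluster, each rat centred on its own mean, the 5 genes whose level followed the mean of the fibrinogen chains most closely were the complement genes C3 (Pearson's r = 0.95), C9 (0.94) and C4bpa (0.93), prothrombin (F2, 0.93) and Serpina1 (0.93), of 1369 genes with a median r of -0.33. Without LEW rat 1, C4bpa, F2 and Serpina1 ranked 20, 21 and 33. Fga itself ranked 44 over all rats. Of the other members Hp had r = 0.89 (rank 109), Ambp 0.88 (rank 135), Orm1 0.86 (rank 181) and Itih3 0.61 (rank 447), and Crp had -0.37. The sums share libraries and depth, and the fibrinogen mean had r = -0.74 with the median UMIs of the cluster. With depth regressed out of every gene, C3 had 0.89, Hp 0.73, Ambp 0.72, Orm1 0.70, Itih3 0.37 and Crp -0.14.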

How the data were processed

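UMI counts per gene and barcode were deposited by the authors, who list Cell Ranger 3.1.0 and Space Ranger 1.1.0 in the submitters' processing notes and whose methods name a custom Rattus norvegicus reference. Barcodes were kept as in the study's filters, with a limit of 2000 UMIs for LEW TLH cells in place of the stated 1500, since it gave the authors' cell numbers. The TLH filters thus differed between the strains. The least UMIs were 1500 in DA rat 1 and 2000 elsewhere, and the highest mitochondrial share 30% and 20% in DA and 40% in LEW. With 1 filter of 2000 UMIs and 20% for all, the TLH difference was 0.03 for Itih3, 0.18 for Fgb, -0.11 for Crp, -0.24 for Ambp and -0.27 for Hp. The TLH and immune-enriched matrices hold no gene names, so their rows were matched by position to the gene list of the nuclei. Library totals were 61441846 to 92484173 UMIs in TLH, 8039397 to 15186970 in nuclei and 48255870 and 60005133 in the immune-enriched libraries. The nuclei libraries shared 8 to 24 barcodes pairwise, 1 to 6 among those kept.

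Counts were normalised with sctransform (version 0.4.2), and 15 principal components of 3000 genes were taken, the members left out. The cells were clustered on these components after a Harmony-type correction for library. It lowered the share of nearest neighbours from the same library from 53.3% to 33.2% in TLH and from 70.9% to 38.6% in nuclei. Each library came from 1 strain, so the correction also acted across strains. The sums that were tested used uncorrected counts. A cluster was named from at least 3 fixed markers among its 30 leading genes against all other cells. Clusters left without a name were also called hepatocyte-like when at least 3 of their 100 leading genes against the other named classes were hepatocyte markers and fewer than 3 markers of any other class were among the 30. This second count, chosen after seeing the data, gave 5 of 6 hepatocyte-like clusters in TLH, 16 of 22 in nuclei and 2 of 6 in the immune-enriched cells, and mitochondrial transcripts led some of those in TLH. A cluster with more markers of another class than of its own among its 10 leading genes stayed unnamed (1 in TLH, 2 in the immune-enriched cells). Scrublet (scanpy 1.11.5) marked 0.0183% to 0.0453% of TLH cells, 0.0950% to 0.862% of nuclei and 0.258% and 0.560% of immune-enriched cells, against an expected 6%, and so did not work in TLH or in the nuclei of LEW rat 1 and marked few doublets elsewhere. Leaving out the 6% with the highest scores, added after seeing the data, gave 418 genes called in TLH and 172 in nuclei, with 1 and 0 members. UMIs of hepatocyte-like cells were summed per rat and fitted with edgeR (version 4.0.16, R 4.3.3), using TMM factors, the default expression filter, a robust quasi-likelihood fit and Benjamini-Hochberg adjustment over all genes tested at 0.05. DESeq2 (version 1.42.0) was an alternative. A strain fit without 1 rat leaves 1 library in that strain, so its p-value takes the spread between rats from the other strain alone. Zones were clusters ranked by a marker score, compared per rat as log2(CPM + 1) with no test. Shares of cells have exact binomial limits, and intervals cover counting error only. The tests were checked on simulated counts. There edgeR called 80% of genes given a log2 change of 1 in TLH and 22% in nuclei. For the platform term the share was 7%, and for the zone term 66%. Smaller changes were not simulated. All members were described, and of the other lists the genes past the threshold, at most 4 in each direction. The members, lists and alternatives were chosen with earlier results of these data known. Promoter windows are from RefSeq, GRCr8, and were not joined to coordinates of the files.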

Additional observations from a re-analysis of the deposited data

Results flagged for a closer look

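Lcn2 stood above the DA level in barcodes that were outside the hepatocyte-like sums compared between strains. The TLH barcodes below the median depth of their library held 43 UMIs of Lcn2 in LEW rat 1 and 38 in LEW rat 2, and 0 in both DA rats. The difference between the strains in these barcodes was -0.85 for Orm1 and 0.35 for Fgg on the log2 scale. Which cells the Lcn2 molecules came from was not tested.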

How the results depend on the processing

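The deviations of same-numbered rats from their strain means had r = -0.15 in TLH and 0.08 in nuclei. With 2 rats per strain these values cannot settle whether the replicate numbers pair the rats. A replicate block moved the genes called from 421 to 156 in TLH (members from 1 to 0, Lcn2 edgeR adjusted p = 0.0929), from 135 to 437 in nuclei and from 1 to 0 for the platform term, and a crossed block, added after seeing the data, gave 893 in TLH. Without the filter on low counts the TLH test called 1142 genes and 3 members (Lcn2, Fgg with edgeR adjusted p = 0.0323 and Orm1 with 0.00224), the nuclei test 526 genes and the platform term 29. DESeq2 called 0 members in TLH and 216 genes in nuclei. The nuclei count was 328 with library size alone, 58 with stricter cell filters and 18 in low-depth barcodes, a setting added after seeing the data. The zone term called 58 genes in place of 112 with longer marker lists.

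Leaving out 1 rat gave 53 to 460 genes and 0 to 2 members in TLH, 128 to 281 genes in nuclei, 0 to 5 for the platform term, and 0 to 145 genes and 0 to 2 members for the zone term. The member values that changed sign then were Hp (-0.41 to 0.17) and Ambp (-0.32 to 0.24) in TLH, with Cfb (-1.16 to 0.61). In nuclei they were Orm1 (-0.87 to 0.39), Hp (-0.36 to 0.46) and Ambp (-0.34 to 0.40), with Nnmt (-0.41 to 1.26), Itih2 (-0.25 to 0.20), Jak1 (-0.048 to 0.066), Zfp36 (-0.43 to 0.37) and Dusp1 (-0.52 to 0.16). For the platform term they were Orm1 (-0.17 to 1.05), Hp (-0.20 to 0.58), Fga (-0.37 to 0.33), Fgg (-0.10 to 0.35), Itih3 (-0.067 to 0.28) and Ambp (-0.26 to 0.48), and for the zone term Hp (-0.12 to 0.51) and Ambp (-0.23 to 0.62). The fibrinogen chains and Crp kept their sign in TLH and nuclei, but in TLH Fga ran from 0.065 to 0.79 and Crp from -0.30 to -0.042, and in nuclei Fgg from 0.33 to 0.77. Itih3 ran from 0.026 to 0.34 in TLH and from 0.21 to 0.45 in nuclei.

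Under the other settings, tested values not past the threshold changed sign as follows. With each library clustered on its own, Itih3 was -0.078 in TLH (where Fga, Fgb and Fgg kept their sign at 0.22, 0.045 and 0.28), and Jak1 -0.070 and Zfp36 -0.067 in nuclei. In low-depth nuclei barcodes Hp was -0.20, Fga -0.093, Fgb -0.030, Ambp -0.22 and Zfp36 -0.85. Itih2 in nuclei was 0.00115 with RLE factors, 0.025 with DESeq2, 0.042 unfiltered, 0.11 over all cells and 0.25 with stricter cell filters. Jak1 was -0.0098 with library size alone and Zfp36 -0.030 with the block, and Fga in the platform term was -0.0089 with RLE factors and -0.0093 with the replicate block. The cause of these changes was not tested.

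The median zone difference of the 8 measured members was taken in each rat or section and then averaged. It moved in nuclei from -0.03 to -0.33 with longer lists and 0.11 by single nuclei. In TLH it moved from 0.73 to 0.37 with longer lists, and on the sections from 0.12 to 0.21 with the outermost spots only. The median share of cells with a UMI of these members fell after thinning from 92.1% to 83.1% in TLH, 91.9% to 78.7% in nuclei and 90.5% to 67.8% in the immune-enriched libraries. The immune-enriched median of 0.45 became 1.12 over all cells, where the hepatocyte-like share differs. Hp went from -0.18 to 0.51 there and Crp from -0.30 to 0.38. The mean likeness of the 5 genes, 0.94, was 0.91 by Spearman's rho and 0.86 with depth regressed out, added after seeing the data, and 0.93 to 0.95 without 1 rat.

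Calls of the other named genes were also lost under settings that left out no rat. In TLH these were Nnmt (block 0.0901, 1 cell filter for all libraries 0.0723), Jak1 (DESeq2 0.156, block 0.115, 1 cell filter 0.0535), Cebpb (block 0.0743, low-depth barcodes 0.0773, 1 cell filter 0.0747), Zfp36 (LEW limit of 1500 UMIs 0.0566) and Dusp1 (block 0.0624, low-depth barcodes 0.0748, 1 cell filter 0.180, LEW limit 0.0670), all edgeR adjusted p but for DESeq2. In nuclei they were Cfb (RLE factors 0.0514, own clusters 0.0685, stricter filters 0.120), Il1rn (RLE factors 0.0648, all cells 0.0544, stricter filters 0.134) and Fosb (block 0.519, all cells 0.0695, low-depth barcodes 0.0979, stricter filters 0.0748), and Cfb and Il1rn in low-depth barcodes. Lcn2 in most libraries and A2m in all lay at or under 3 UMIs.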
